A study of Bos taurus with 16 samples.

Results

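The response of Gir macrophages to lipopolysaccharide (LPS) was examined in the 8 libraries labelled Indicine, out of 16 libraries in the series, and the other 8 are labelled Taurine. The labels give the subspecies, which the study's text equates with the Gir and Holstein breeds. Monocyte-derived macrophages (MDMs), which are macrophages grown in culture from adherent mononuclear cells of the blood, were differentiated for 11 days in medium with fetal bovine serum. The cells of each of the Gir animals numbered 2, 5, 6 and 7 were then kept either in medium alone (unstimulated) or in medium with 100 ng/ml LPS of Escherichia coli for 48 hours. This gave 4 unstimulated and 4 LPS treated libraries, 1 per animal and stimulus, so that each animal served as its own control. The Holstein animals, numbered 1, 20, 3 and 50, had the same differentiation and the same stimulation. All animals were healthy and at most 1 year old, none was pooled with another, and only a single time point was sampled.

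Gir are zebu cattle (Bos taurus indicus), kept as dairy animals in the tropics and known for tolerance of heat and parasites. LPS is the main glycolipid on the surface of gram-negative bacteria. In macrophages it is handed by LPS binding protein and CD14 to the receptor complex of TLR4 and MD-2, which signals through the adaptors MyD88 and TRIF to NF-kB and interferon regulatory factors. The early wave of cytokine and chemokine transcripts is followed by feedback inhibitors, interferon-stimulated genes and slower changes of metabolism and surface receptors, and a late sample is taken after much of the early wave has passed. Genes are listed here by Ensembl identifier without a symbol, so that neither these pathways nor the macrophage label could be checked against named genes.

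Total counts on genes ranged from 7362247 to 9820099 per Gir library, so that 1 CPM (a gene's counts scaled to a common library size) stood for 7.36 to 9.82 counts. The levels printed here were also scaled by TMM factors, after which 1 CPM stood for 6.85 counts in LPS treated MDMs of animal 6 and up to 11.0 counts in unstimulated MDMs of animal 2. LPS treated libraries had fewer genes at 1 CPM or more than the unstimulated library of the same animal in 4 of 4 animals. In the order of animals 2, 5, 6 and 7, there were 12809, 11778, 11797 and 12449 such genes in unstimulated MDMs, and 11792, 11722, 11553 and 11598 in LPS treated MDMs. The 100 genes with the most counts took 33.8%, 37.9%, 39.8% and 35.7% of the counts in unstimulated MDMs and 38.9%, 41.4%, 43.9% and 40.2% with LPS, again higher with LPS in each of the 4 animals. The unstimulated library of animal 2 stood apart from the rest on the first principal component of log2 CPM. That component held 41.1% of the variance, and the library lay at -74.3 against values between -29.2 and 37.6 for the other 7. The mRNA of whole cultures was measured in bulk, so that a change in the number of cells of a type and a change in RNA per cell cannot be told apart.

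Genes were tested when 4 or more of the 8 libraries reached 1 CPM. Of the 11913 genes that did, 26 changed with LPS at a false discovery rate (FDR) under 0.05 and a log2 fold change of at least 1 in either direction, with the animal as a block. These were 20 genes that rose (0.168% of the genes tested) and 6 that fell (0.0504%), by edgeR's quasi-likelihood test with Benjamini-Hochberg adjustment. Fold changes of the genes that rose lay between 1.07 and 3.50 on the log2 scale with a median of 1.95, and those of the genes that fell between -3.54 and -1.33 with a median of -1.67. Standard errors were between 0.11 and 0.36 for the genes that rose and between 0.13 and 0.41 for those that fell. All 26 moved the same way in 4 of 4 animals. LPS and unstimulated libraries did not overlap for 18 of the 20 genes that rose, against 397 genes (3.33%) with all LPS libraries higher among all tested. They did not overlap for 3 of the 6 that fell, against 363 genes (3.05%) with all LPS libraries lower. Among these 3, ENSBTAG00000013185 reached 1 CPM in unstimulated libraries only, so that its separation followed from the filter. The lowest adjusted p was 0.00468, 18 of the 26 genes had an adjusted p above 0.04, and 203 genes lay between 0.05 and 0.10, the first of them at 0.0511 (edgeR quasi-likelihood, Benjamini-Hochberg).

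The number of calls depended on the animals and on the test. Without animal 7 no gene was called, with 1024 genes at an unadjusted p under 0.05 (edgeR quasi-likelihood). Without animal 5 there were 5 calls, 1 higher and 4 lower, of which 1 was among the 26. There were 57 calls without animal 2 (44 higher, 13 lower) and 191 without animal 6 (116 higher, 75 lower). The balance also turned to falls without a filter on low counts, with 123 genes higher and 159 lower, and in 1 model over all 16 libraries, with 139 higher and 232 lower. Without the animal as a block the count was 0, with a lowest adjusted p of 0.0786 and 1393 genes at an unadjusted p under 0.05 (edgeR quasi-likelihood). With the block, DESeq2 called 299 genes (2.51% of those tested), of which 171 were higher and 128 lower, and edgeR's likelihood ratio test called 352 (2.95%), of which 191 were higher and 161 lower. Each of these longer lists contained all 26 genes. Scaling by library totals instead of TMM gave 24 genes higher and 13 lower, and moved the median log2 fold change of all genes to -0.15. With the animal as a block, the p-values rest on the spread of the response to LPS between these 4 animals. Differences in level between the animals are removed by the block.

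**Figure D1:**
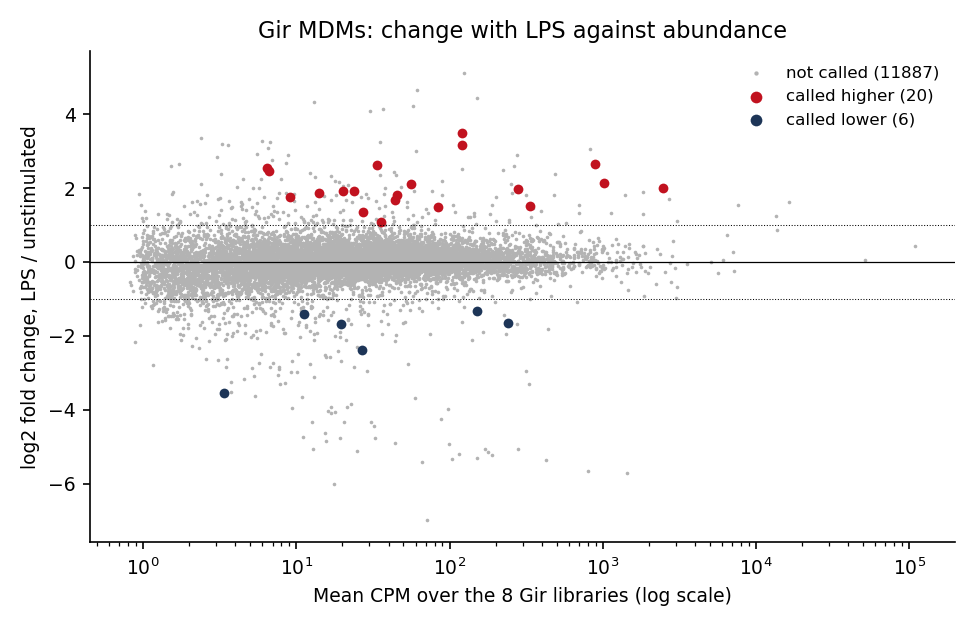
Each point is 1 of the 11913 genes tested in Gir MDMs, with its mean CPM over the 8 libraries on a log axis and its log2 fold change of LPS over unstimulated MDMs on the vertical axis. Red points are the 20 genes called higher and blue points the 6 called lower, dotted lines mark 1 and -1, and many uncalled genes lie beyond the called ones, mostly among the falls.

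The gene that rose most among the calls, ENSBTAG00000021462, had 5.54, 38.1, 11.9 and 21.2 CPM in unstimulated MDMs of animals 2, 5, 6 and 7, and 129, 472, 68.8 and 214 CPM after LPS. The lowest LPS library, that of animal 6, was above the highest unstimulated library, that of animal 5, so the groups did not overlap. Its mean was 19.2 ± 14.2 CPM in unstimulated and 221 ± 178 CPM in LPS treated MDMs (SD, n = 4), and its fold change was 11.3, or 3.50 ± 0.32 on the log2 scale (SE; edgeR quasi-likelihood, adjusted p = 0.0343). The rise was smallest in animal 6 (2.51 on the log2 CPM scale) and largest in animal 2 (4.48). Its call was lost without animal 5 (adjusted p = 0.0669), without animal 7 (adjusted p = 0.241) and without the block (adjusted p = 0.131), where its log2 fold change was 3.46, 3.55 and 3.53.

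ENSBTAG00000016915 had 18.9, 17.9, 52.8 and 16.9 CPM in unstimulated MDMs of the same animals and 214, 301, 190 and 157 CPM after LPS. Animal 6 was well above the other 3 at rest, and after LPS it lay between animals 7 and 2, with no overlap of the groups. The fold change was 8.96, or 3.16 ± 0.36 on the log2 scale (SE; edgeR quasi-likelihood, adjusted p = 0.0495). The means were 26.6 ± 17.5 and 216 ± 61.7 CPM (SD, n = 4). The call was lost without animal 5 (adjusted p = 0.0669), without animal 7 (adjusted p = 0.266) and without the block (adjusted p = 0.0786), with log2 fold changes of 2.86, 3.13 and 3.02.

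ENSBTAG00000013185 showed the largest fall among the calls and was a gene of few counts. It had 9.18, 4.66, 2.16 and 8.83 CPM in unstimulated MDMs and 0.671, 0.364, 0.584 and 0.381 CPM after LPS, from 6, 3, 4 and 3 counts. All LPS libraries were below all unstimulated ones. With every LPS library under 1 CPM, the gene passed the filter only through its unstimulated libraries. Its separation and its direction in each animal thus followed from the filter and add no support. The fitted fold change was -3.54 ± 0.41 on the log2 scale (SE; edgeR quasi-likelihood, adjusted p = 0.0495). In the summed counts, 232 against 16, the ratio per total count was 14.5, with a 95% interval from 8.76 to 25.8 (Clopper-Pearson) that covers counting error only. The call was lost without animal 2 (adjusted p = 0.0549), without animal 5 (adjusted p = 0.0988), without animal 7 (adjusted p = 0.266) and without the block (adjusted p = 0.0869), with log2 fold changes of -3.43, -3.52, -3.21 and -3.60.

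ENSBTAG00000012451 fell from 102, 18.9, 20.9 and 42.2 CPM in unstimulated MDMs to 10.3, 3.77, 7.16 and 9.02 CPM after LPS, and the groups did not overlap. Its means were 45.9 ± 38.6 and 7.56 ± 2.84 CPM (SD, n = 4). The fold change was -2.38 ± 0.29 on the log2 scale (SE; edgeR quasi-likelihood, adjusted p = 0.0495), or 5.21-fold lower. Animal 2 was highest under both conditions and had the largest fall (-3.27 on the log2 CPM scale), and animal 6 had the smallest (-1.52). The call was lost without animal 5 (adjusted p = 0.101), without animal 7 (adjusted p = 0.266) and without the block (adjusted p = 0.168), with log2 fold changes of -2.39, -2.44 and -2.60.

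**Figure D2:**
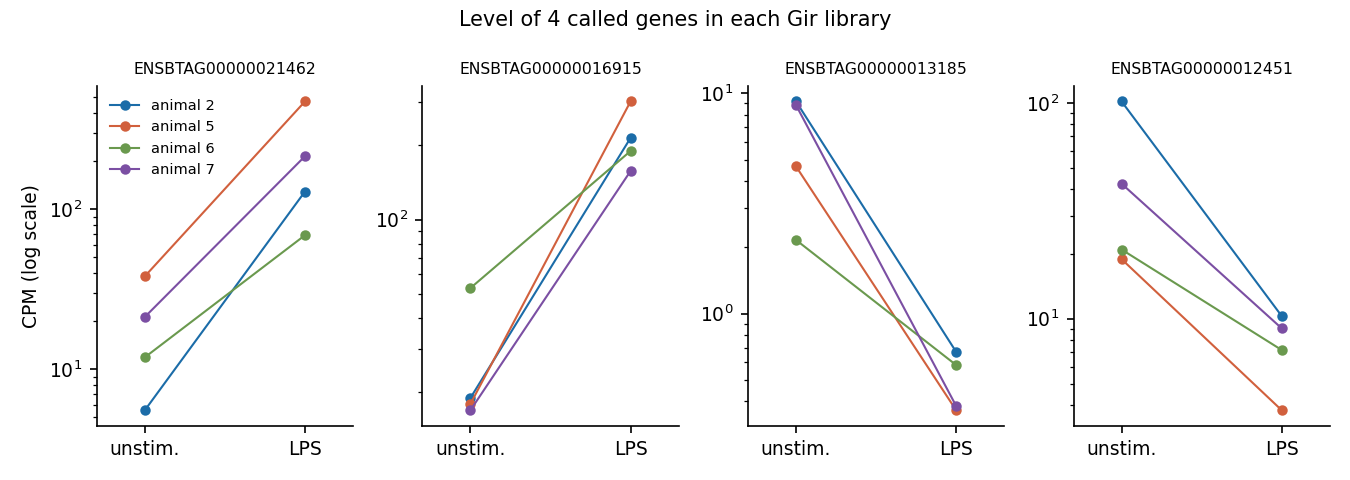
Levels of the 4 genes in each Gir library, in CPM on a log axis with a separate range per panel, and a line joining the unstimulated and the LPS treated MDMs of each animal. The lines of ENSBTAG00000021462 and ENSBTAG00000016915 rise and those of ENSBTAG00000013185 and ENSBTAG00000012451 fall in all 4 animals, and the line of animal 6 is the flattest in each panel.

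The genes that rose differed widely in how many counts they took. Their mean CPM over the 8 libraries ranged from 6.39 to 2490 with a median of 44.7, and that of the genes that fell from 3.35 to 240 with a median of 23.1, beside a median of 22.2 over all tested genes. CPM is not corrected for gene length, so that these values give a share of the counts and not a level per transcript. The riser with the most counts had rank 24 by mean CPM among all tested genes, with 818, 507, 2180 and 841 CPM in unstimulated MDMs and 2813, 3495, 5494 and 3769 CPM after LPS. Its groups did not overlap, and animal 6 was the highest under both conditions, with the smallest rise (log2 fold change 2.01 ± 0.24 over the animals, adjusted p = 0.0495, edgeR quasi-likelihood). The faller with the most counts had 315, 691, 27.4 and 440 CPM in unstimulated MDMs and 85.3, 199, 10.7 and 150 CPM after LPS. Its groups overlapped, because animal 6 at rest was below 3 of the LPS libraries, but the fall within an animal was alike in all 4, from -1.34 to -1.88 (log2 fold change -1.66 ± 0.13, adjusted p = 0.0278, edgeR quasi-likelihood). The gene with the lowest p had 15.9, 35.9, 15.1 and 17.4 CPM in unstimulated MDMs of animals 2, 5, 6 and 7 and 77.5, 149, 64.1 and 72.3 CPM in LPS treated MDMs. Its groups did not overlap, and the 4 differences lay between 2.04 and 2.27 on the log2 scale, with a fold change of 2.12 ± 0.11 (adjusted p = 0.00468, edgeR quasi-likelihood).

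Summed over the 20 genes that rose, unstimulated MDMs of animals 2, 5, 6 and 7 had 1627, 1814, 3629 and 1865 CPM and LPS treated MDMs 6859, 11224, 9394 and 8852 CPM. The sum for animal 6 at rest was the highest of the unstimulated libraries and still below every LPS library. The riser with the most counts alone made up 2180 CPM of it, against 818, 507 and 841 CPM in animals 2, 5 and 7. The sums therefore do not describe the 20 genes alike. Over the 6 genes that fell, the sums were 751, 867, 403 and 720 CPM in unstimulated and 214, 269, 164 and 235 CPM in LPS treated MDMs. Animal 6 had the lowest sum under both conditions, but the faller with the most counts weighed heavily in these sums. That gene alone had 315, 691, 27.4 and 440 CPM at rest in animals 2, 5, 6 and 7. The low sums of animal 6 therefore do not describe the other genes that fell.

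Animal 6 moved least among the called genes. The median difference between LPS treated and unstimulated MDMs over the 20 genes that rose was 2.10 in animal 2, 2.21 in animal 5, 1.45 in animal 6 and 2.02 in animal 7, on the log2 CPM scale. The smallest of the 4 rises was that of animal 6 for 16 of the 20 genes, and the largest that of animal 5 for 13. Over the 6 genes that fell the medians were -1.75, -1.66, -1.42 and -1.85, and animal 6 had the smallest fall for 4 of them. These values describe genes selected with the same libraries and were not tested.

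**Figure D3:**
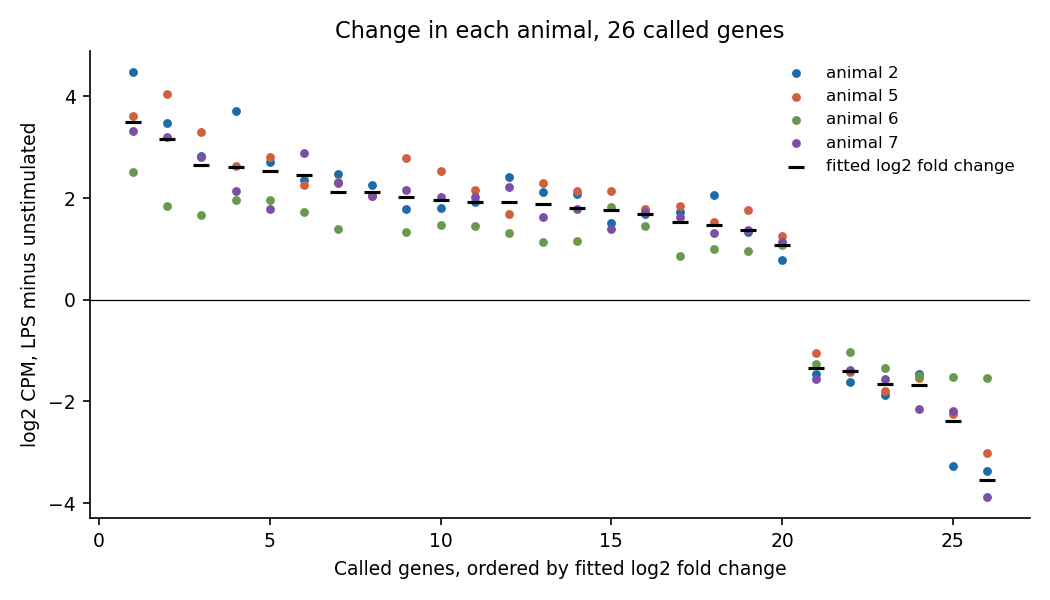
Differences in log2 CPM between LPS treated and unstimulated MDMs of each animal for the 26 called genes, ordered by fitted log2 fold change, which a black dash marks. All points lie on the same side of 0 as their dash, and the points of animal 6 are nearest to 0 for 16 of the 20 genes that rose and 4 of the 6 that fell.

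Across all genes tested, most did not move the same way in the 4 animals. LPS treated MDMs were higher in all 4 animals for 1387 genes and lower in all 4 for 1502, which together were 24.3% of the 11913 genes. Another 3031 genes were higher in 3 of the 4 animals, 3110 were lower in 3 of the 4, and 2880 were higher in a pair of animals and lower in the other pair. The remaining few genes had a pair of libraries without any count. The size of the move separated the animals further. At least 1 log2 unit of rise was seen in a single animal for 1319 genes, in 2 animals for 240, in 3 for 102 and in all 4 for 56 (0.47% of the genes tested). The corresponding numbers for falls were 881, 399, 147 and 21 (0.176%). Of the genes that moved by this much, 202 were higher in some animal and lower in another.

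The 77 genes that moved by at least 1 log2 unit the same way in all 4 animals included 22 of the 26 called by the quasi-likelihood test, 76 were called by DESeq2 and all 77 by the likelihood ratio test. In the 55 of them without a quasi-likelihood call, the range over the 4 differences had a median of 2.37 log2 units, beside 1.04 in the 26 called genes and 0.77 in all genes tested. That test itself uses the spread between animals, so these ranges are a description of the calls. The number of genes that moved this much in the remaining 3 animals was 92 without animal 2 (60 higher, 32 lower), 149 without animal 5 (63 higher, 86 lower), 233 without animal 6 (145 higher, 88 lower) and 83 without animal 7 (58 higher, 25 lower). Falls thus outnumbered rises without animal 5. Scaling by library totals gave 42 genes higher and 32 lower in all 4 animals. The share of genes in this set had no single trend with the number of counts. Genes higher in all 4 animals made up 0.151% of those with a mean under 3 CPM, 0.651% from 3 to 10 CPM, 0.326% from 10 to 30 CPM, 0.304% from 30 to 100 CPM and 0.924% from 100 to 300 CPM. At 300 CPM or more they made up 1.61%, which was 7 of 434 genes. Genes lower in all 4 made up 0.297% or less of each class. Among the 100 genes with the most counts, with a lowest mean of 905 CPM, 2 were higher and none was lower by at least 1 log2 unit in all 4 animals, 43 moved the same way in all 4, and DESeq2 called 9, of which 8 were higher.

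No gene lacked counts in all 4 libraries of a condition while holding at least 10 counts in every library of the other condition. There were 6 genes with fewer than 10 counts in each unstimulated library and at least 10 in every LPS library, and 13 genes with the reverse pattern.

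The animals differed in how far their transcriptomes moved. The median absolute difference between LPS treated and unstimulated MDMs over all genes tested was 0.457 log2 units in animal 2, 0.300 in animal 5, 0.228 in animal 6 and 0.225 in animal 7. Animal 2 also had 1311 genes higher by at least 1 log2 unit and 853 lower, of which 948 and 390 did so in this animal alone. Animal 5 had 605 higher and 455 lower, animal 6 had 161 and 310, and animal 7 had 252 and 586. The unstimulated library of animal 2 is the one that stood apart on the first principal component and had the most genes at 1 CPM or more. Its part in these counts was not tested. In Holstein animals 1, 20, 3 and 50, the same median was 0.235, 0.270, 0.264 and 0.334.

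**Figure D4:**
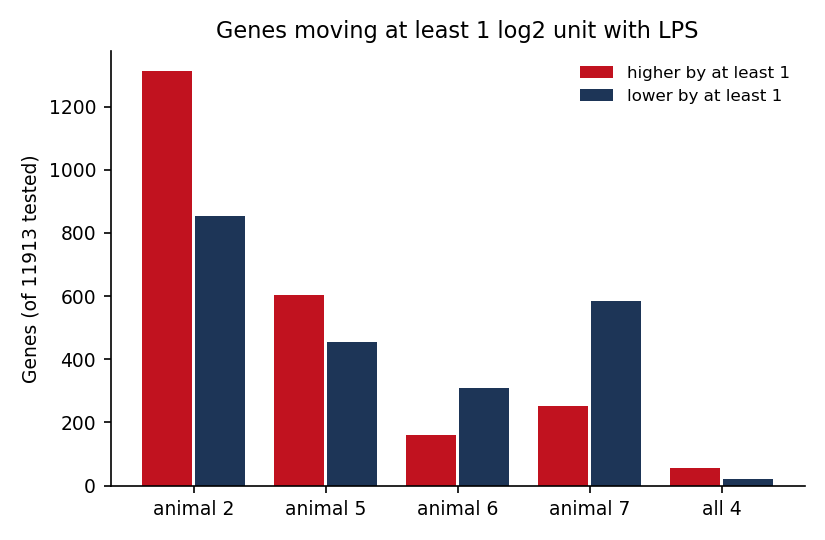
Number of genes, of the 11913 tested, that were higher (red) or lower (blue) by at least 1 log2 CPM unit in LPS treated than in unstimulated MDMs, for each Gir animal and for all 4 animals at once. The bars fall from 1311 and 853 genes in animal 2 to 56 and 21 genes common to the 4 animals, and animals 6 and 7 had more falls than rises.

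Pairs of animals resembled each other to different degrees. Over the 11913 genes, Pearson's r between the log2 differences of 2 animals was 0.73 for animals 2 and 7, 0.36 for 2 and 5, 0.34 for 6 and 7, 0.26 for 5 and 7, 0.14 for 2 and 6, and 0.09 for 5 and 6. Spearman's rho for the same pairs was 0.53, 0.53, 0.17, 0.43, -0.13 and -0.04. Animal 6 thus had low or negative rank agreement with animals 2 and 5. Genes are not independent replicates, and the values are descriptive.

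The levels reached after LPS also set animal 6 apart. Between unstimulated libraries of any pair of animals, the median absolute difference over genes lay between 0.246 and 0.391 log2 units, and the 3 highest values, from 0.328 upward, were those that involve animal 2. Between LPS treated libraries it lay between 0.206 and 0.245 among animals 2, 5 and 7, and between 0.388 and 0.429 when animal 6 was one of the pair. The SD over the 4 animals had a median over genes of 0.287 in unstimulated and 0.289 in LPS treated MDMs. Without animal 6 these medians were 0.285 and 0.190, so that the other 3 animals were closer to each other after LPS than at rest. Without animal 2 they were 0.231 and 0.297.

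The largest average changes were not the called ones. The 50 genes with the largest fitted rises had log2 fold changes from 2.11 to 5.11, and 49 of them were higher in all 4 animals. Only 8 were among the 20 called genes, while DESeq2 called 49. Their median rise was 3.45 log2 units in animal 2, 3.09 in animal 5, 1.39 in animal 6 and 2.54 in animal 7, and animal 6 had the largest rise for none of them. Their summed CPM was 695, 2003, 2072 and 1355 in unstimulated MDMs of animals 2, 5, 6 and 7, and 8262, 14330, 6261 and 8221 after LPS. The sums in LPS treated MDMs were all above those in unstimulated MDMs, with the smallest increase again in animal 6.

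The 50 largest fitted falls, from -2.97 to -6.98, were steepest in a pair of animals. The largest fall was that of animal 2 for 35 genes and that of animal 7 for 15. Only 13 of these genes were lower in all 4 animals. With LPS, 37 were higher in animal 5, but only 3 in animal 6. The median difference was -7.17 in animal 2, 1.37 in animal 5, -1.59 in animal 6 and -5.91 in animal 7. Their summed CPM in unstimulated MDMs was 21405 in animal 2 and 18970 in animal 7, but 160 in animal 5 and 369 in animal 6, and after LPS it was 56.9, 290, 112 and 57.4 in animals 2, 5, 6 and 7. Animals 2 and 7 thus had high levels at rest, and for 47 of the 50 genes they were the 2 highest unstimulated libraries. A single one of the 50 was called by the quasi-likelihood test and 17 by DESeq2. Over all genes tested, falls of at least 3 log2 units numbered 127 in animal 2, 16 in animal 5, 10 in animal 6 and 93 in animal 7. Animals 2 and 7 shared 80 of them, and no other pair shared more than 3. Rises of this size numbered 53, 45, 0 and 17, and no gene rose or fell by this much in all 4 animals. Both sets of 50 were chosen by their fitted changes in these libraries, and their values are a description.

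**Figure D5:**
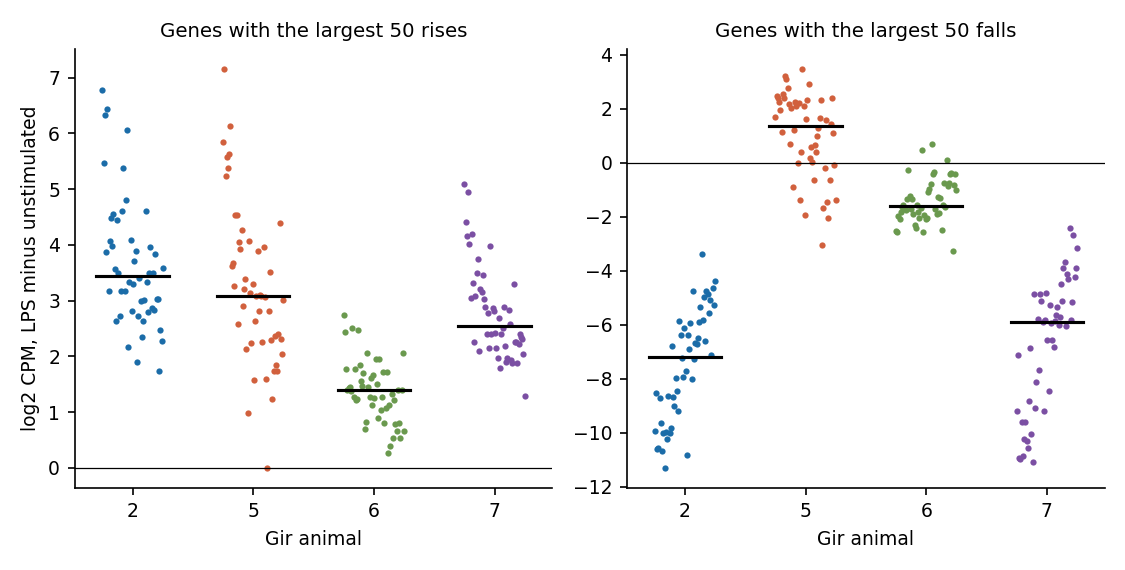
Differences in log2 CPM between LPS treated and unstimulated MDMs of each Gir animal for the 50 genes with the largest fitted rises (left) and the 50 with the largest fitted falls (right), each point a gene and each bar the median. Rises are at or above 0 in every animal and lowest in animal 6, while falls have medians of -7.17 and -5.91 in animals 2 and 7 and of 1.37 in animal 5.

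The libraries labelled Taurine show whether the called genes also moved in Holstein MDMs. In these 8 libraries, with the same test, 221 of 12400 genes were higher (1.78%) and 251 lower (2.02%) with LPS. All 20 genes that rose in Gir were higher in Holstein in each of the 4 animals, and 18 of them were called there. The share of all tested genes higher in each Holstein animal is not given here. Their median log2 fold change was 2.58 in Holstein, and it was larger in Gir than in Holstein for 4 of the 20. Of the 6 genes that fell in Gir, 5 passed the filter in Holstein, all 5 were lower and 3 were called, with a median of -2.04. ENSBTAG00000021462 had a log2 fold change of 4.45 in Holstein, ENSBTAG00000016915 of 1.88 and ENSBTAG00000012451 of -2.32, and ENSBTAG00000013185 did not pass the filter there.

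A difference between the breeds in the response was tested as the interaction of breed and stimulus over all 16 libraries. Of 12968 genes, 0 (0%) passed an FDR of 0.05 by edgeR's quasi-likelihood test, the lowest adjusted p being 0.178, and 1074 genes had an unadjusted p under 0.05. The likelihood ratio test called 114 genes and DESeq2 called 13. Of the 26 genes called in Gir, 8 had an unadjusted interaction p under 0.05, and the lowest adjusted p among the 26 was 0.443 (edgeR quasi-likelihood). For ENSBTAG00000016915, which had the larger fold change in Gir, the interaction was 1.33 ± 0.41 on the log2 scale (SE, adjusted p = 0.507), and for ENSBTAG00000021462, which had the larger one in Holstein, it was -0.91 ± 0.49 (SE, adjusted p = 0.628, edgeR quasi-likelihood).

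Among the 11646 genes tested in both, 53 were higher by at least 1 log2 unit in all 4 Gir animals and 108 in all 4 Holstein animals. The 37 in both lists were 69.8% of the Gir list and 34.3% of the Holstein list. For falls, there were 18 genes in Gir and 44 in Holstein, and the 6 in both were 33.3% and 13.6% of these lists. No gene was higher in all animals of a breed and lower in all of the other by this limit. Of the 50 largest rises in Gir, 44 were tested in Holstein, 43 of these had the same direction and 38 were called. Of the 50 largest falls, 49 were tested, all 49 had the same direction and 4 were called. The share of all tested genes with the same direction in both breeds is not given here. The falls differed between Holstein animals as well, with a median difference of -1.74, -1.59, 2.57 and -2.004 log2 units in animals 1, 20, 3 and 50, so that animal 3 moved upward like the Gir animal 5.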

How the data were processed

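Bulk RNA was sequenced from MDMs of 4 Gir and 4 Holstein animals, unstimulated or with LPS, as stranded mRNA libraries. The values are raw gene counts as deposited. The authors obtained them with STAR 2.6.0c and HTSeq 0.10.0 (versions as in the submitters' processing notes) from uniquely mapped reads. Those notes name the genome UMD3.1, while the study's methods name ARS-UCD1.2. The strand setting of the counting is not given in the sources used here, so that overlapping genes on opposite strands are uncertain.

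Each file lists 27607 Ensembl identifiers and 5 counters of reads without a gene, which were removed and made up between 18.4% and 23.2% of a Gir library. The reference table (ARS-UCD2.0, 37063 genes) matched 0 identifiers, so no symbol was assigned, and lists of pathway genes and cell type markers were not analysed. By the rule used in that case, the called genes named are the 2 that rose and the 2 that fell with the largest log2 fold changes and 1 direction in 4 of 4 pairs. Other genes described were chosen after their values were seen. The comparisons and lists were chosen with earlier results of these data known.

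Genes reaching 1 CPM in 4 or more libraries were fitted in R 4.3.3 with edgeR 4.0.16 (TMM factors, glmQLFit and glmQLFTest, animal as block, Benjamini-Hochberg adjustment). The standard error is the log2 fold change divided by the root of the F statistic. CPM were TMM-scaled, and differences within animals used log2 CPM with a prior count of 2. A pair without a count in both libraries (13 genes) has no direction. The samples pair by animal, as the titles number them. Deviations from the group means correlated within an animal at 0.048, 0.304, 0.294 and 0.501 in animals 2, 5, 6 and 7. The unstimulated library of animal 2 correlated more with the LPS library of animal 6 (0.380) than with its own, so that for this animal the pairing rests on the titles. Alternatives used DESeq2 1.42.0 and limma 3.58.1, other scalings and filters, no block, 1 model over 16 libraries, and each animal left out, with the filter then at 3 Gir libraries. The fits were tested on simulated counts. Figures were drawn with Python 3.11.15 and matplotlib 3.10.9.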

Additional observations from a re-analysis of the deposited data

Results flagged for a closer look

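In groups of 4 libraries, the highest or lowest value was set against the other 3 by Dixon's 95% limit. Of 25 such groups, 2 held a value beyond it, where chance gives about 1 in 20. Both concern unstimulated MDMs of animal 6: the level of ENSBTAG00000016915, at 52.8 CPM against 16.9 to 18.9 CPM in the other animals, and the summed CPM of the 20 genes that rose, at 3629 against 1627 to 1865. They are not independent, since that gene is 1 of the 20, although its 52.8 CPM are a small part of the sum. The riser with the most counts gave 2180 of the 3629 CPM, against 818, 507 and 841 CPM in animals 2, 5 and 7. The flagged sum thus rests largely on that gene and does not describe the 20 genes alike.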

How the results depend on the processing

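The count of 26 genes changed by LPS in Gir MDMs became 40 with DESeq2 size factors, 282 without a filter on low counts (123 higher, 159 lower), 47 with limma-trend, 299 with DESeq2, 352 with the likelihood ratio test and 371 in 1 model over 16 libraries (139 higher, 232 lower). Without the animal as a block it was 0. It stayed between 26 and 37 with library totals, filterByExpr, no fold limit and the newer form of the quasi-likelihood test. That form was added after the data were seen, because the planned older form is edgeR's default. Leaving out an animal gave between 0 (without animal 7) and 191 (without animal 6). For the interaction with breed, 0 genes became 114 with the likelihood ratio test and 13 with DESeq2, and stayed at 0 with DESeq2 size factors, without the block and without any of the 4 Gir animals. The 77 genes moving at least 1 log2 unit in all 4 pairs became 236 at a limit of 0.58, and between 83 and 233 with an animal left out. A lower limit or fewer pairs is a weaker condition, so that, filter and scaling apart, these higher numbers follow from the definition. How much higher each was, and the cause of the other differences, was not tested. The median move of each animal changed by less than the range over the 4 animals under 3 alternatives. The order of animals 6 and 7 was not kept, with 0.228 and 0.225 log2 units in the main setting. Without a filter on low counts they had 0.226 and 0.261. The 4 named genes kept their direction in all fits. For ENSBTAG00000013185, whose LPS libraries held 3 to 6 counts, counting error alone gave the ratio a 95% interval from 8.76 to 25.8. The parts of depth and of the spread between animals in its standard error were not told apart. Alternatives for gene lists were not run, as no symbols were at hand.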
